A study of Mus musculus with 16 samples.

Results

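The response of 6DT1 cells transduced with CLIC4 lentivirus to hydrogen peroxide was described at the level of single genes. 6DT1 is a mouse mammary cancer cell line of FVB strain background, and CLIC4 belongs to the chloride intracellular channel family of glutathione transferase-like proteins. The comparison held 8 of the 16 libraries in the study, chosen by their titles: 4 lentivirus libraries left untreated (libraries 1 to 4) and 4 harvested after 24 hours with 1 µM H2O2 (libraries 5 to 8). The design text says that the lentivirus expressed CLIC4, while the sample descriptions call these libraries wild type. The other 8 libraries carried an empty vector and are described as a CLIC4 knockout, again untreated (9 to 12) or treated with the same dose for the same time (13 to 16). The labels do not say whether the lines were clones or whether replicate libraries stem from different cultures. Every p-value therefore measures only the spread between these libraries, which may be technical.

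Hydrogen peroxide is a mild oxidant that cells remove with peroxiredoxins, glutathione peroxidases and catalase, and that can oxidise cysteines in signalling proteins. The transcription factor NRF2 induces antioxidant enzymes such as Hmox1 and Nqo1 under oxidant stress, p53 can raise the cell cycle inhibitor Cdkn1a, and ATF4 drives a broader stress programme. Genes for DNA replication are read mostly by E2F factors around the start of S phase, and genes for mitosis are read later in the cycle through CHR and CCAAT promoter elements. The factor SREBP2 drives the enzymes of cholesterol synthesis when sterols are scarce. In bulk RNA, fewer cells in a cycle phase and less RNA per cell cannot be told apart.

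Clic4 stood at 225, 244, 222 and 223 CPM (counts scaled to library size, here over all 16 libraries) in lentivirus libraries 1 to 4 and at 249, 258, 230.3 and 234 CPM in libraries 5 to 8. The empty-vector libraries held 39.5 to 45.2 CPM, apart from library 11 with 138 CPM. Clic4 was thus highest in the lentivirus libraries, and in the fit of those 8 alone the H2O2 change was 0.09 ± 0.04 (log2, SE, edgeR adjusted p = 0.263), with overlapping groups. Total counts of the 8 libraries ran from 47.1 to 61.9 M, no pair of them had counts equal within sampling noise (lowest chi-square per degree of freedom 5.05 over 28 pairs), and the treatment groups were not separated on the first principal component. The luminal keratins Krt8 (428 ± 18.9 CPM, SD, n = 4 untreated), Krt18 and Krt19 were present, as was the mesenchymal Vim, whereas the epithelial adhesion genes Epcam (5 and 1 counts over the untreated and treated groups) and Cdh1 (10 and 11 counts) were almost unread. The endothelial cadherin Cdh5 (82.9 CPM) and the lysosomal macrophage marker Cd68 (80.7 CPM) were read, while leukocyte Ptprc had 7 and 5 counts, and Krt5, Krt14 and the adipocyte markers were at or near 0. No marker of luminal, basal, fibroblast, endothelial, immune or adipocyte cells was called by edgeR, and DESeq2 called Col1a1 higher. The summed levels overlapped between the groups for each of the first 5 cell types. For luminal cells they were 601 to 649 against 615 to 644 CPM, summed over 11 markers of which 5 were tested.

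H2O2 moved few genes, and by little. Of 13727 genes tested, 20 were called higher (0.146%) and 101 lower (0.736%) at an adjusted p under 0.05 in edgeR's quasi-likelihood test, and none of them by 2-fold. The largest called rise was that of Hk2, 16.0%, and the largest called fall that of Ska1, which fell by 29.6%. For each of the 121 genes (0.881%) the 4 treated libraries lay wholly on one side of the 4 untreated ones. Over all tested genes, 699 (5.09%) had every treated library above every untreated one and 925 (6.74%) below, and the median log2 change was 0.00. Adjusted p-values of the called genes lay between 0.0312 and 0.0491, close to the threshold. With library 1, 5 or 6 left out no gene was called, with library 7 left out 1 was, with library 8 left out 1 was called higher (0.00721%) and 24 lower (0.173%), and with library 3 left out 132 higher (0.953%) and 489 lower (3.53%) (unadjusted p was under 0.05 for 2521 genes with all 8 libraries and for 1997 to 2835 with one left out). Fits that shared the spread with the empty-vector libraries called none (0 of 14602 genes with 15 libraries, 2135 of them at an unadjusted p under 0.05, and 0 of 14445 with all 16, with 255), while DESeq2 on the 8 libraries called 216 higher (0.936%) and 447 lower (1.94%). DESeq2's shares are of 23074 genes with any count, which include low-count genes outside the 13727, so they are not like those of edgeR. All 121 genes kept their sign in each alternative in which they were tested.

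**Figure D1:**
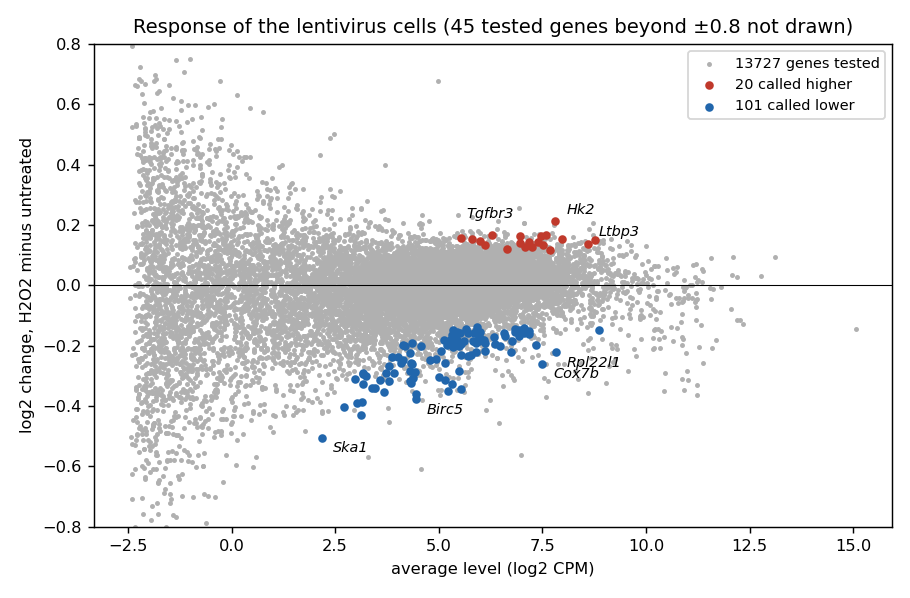
Each point is 1 of the 13727 tested genes, with its average level in log2 CPM on the horizontal axis and its log2 change, H2O2 minus untreated, on the vertical axis. The 20 genes called higher (red) and the 101 called lower (blue) lie between -0.51 and 0.21, and 45 tested genes beyond ±0.8, none of them called, are not drawn.

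Promoters of 5 genes are shown for the elements that mitotic, replication and sterol genes are known for. The stretches come from RefSeq (GRCm38.p6) and run from 200 bases before to 30 bases after the annotated start, 5′ to 3′ on the gene's strand. Ccnb2 (chr9:70421525-70421754 on the minus strand) and Cenpa (chr5:30666686-30666915 on the plus strand) stand for mitotic genes, with the CHR letters TTTGAA and the CCAAT box in capitals, on either strand.
Ccnb2: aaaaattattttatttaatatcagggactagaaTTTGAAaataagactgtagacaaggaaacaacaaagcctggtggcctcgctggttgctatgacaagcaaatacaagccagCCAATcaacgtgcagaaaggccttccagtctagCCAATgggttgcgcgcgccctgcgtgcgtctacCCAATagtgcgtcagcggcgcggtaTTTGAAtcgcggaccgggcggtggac
Cenpa: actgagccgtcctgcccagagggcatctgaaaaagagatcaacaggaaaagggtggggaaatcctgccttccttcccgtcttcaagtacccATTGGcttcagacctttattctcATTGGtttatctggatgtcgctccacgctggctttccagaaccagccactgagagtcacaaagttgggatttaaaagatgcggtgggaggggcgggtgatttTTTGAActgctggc
In Ccnb2 one CHR match begins 4 bases after the start, downstream of 3 CCAAT boxes. In Cenpa the CHR match begins 16 bases after the start, and both CCAAT matches lie on the opposite strand.

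Mcm5 (chr8:75109309-75109538 on the plus strand) stands for replication genes, with 2 overlapping matches to an E2F site in capitals, 153 and 149 bases before the start.
Mcm5: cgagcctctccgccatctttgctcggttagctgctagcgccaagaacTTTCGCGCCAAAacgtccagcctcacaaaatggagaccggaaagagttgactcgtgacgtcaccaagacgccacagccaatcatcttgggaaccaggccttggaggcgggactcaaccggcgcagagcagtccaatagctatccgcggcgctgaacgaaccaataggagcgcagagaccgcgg
Cyp51 (chr5:4104668-4104897 on the minus strand) and Hmgcs1 (chr13:119690151-119690380 on the plus strand) stand for cholesterol synthesis, with CCAAT boxes and, in Hmgcs1, the sterol regulatory element TCACNCCAC in capitals, 137 bases before the start.
Cyp51: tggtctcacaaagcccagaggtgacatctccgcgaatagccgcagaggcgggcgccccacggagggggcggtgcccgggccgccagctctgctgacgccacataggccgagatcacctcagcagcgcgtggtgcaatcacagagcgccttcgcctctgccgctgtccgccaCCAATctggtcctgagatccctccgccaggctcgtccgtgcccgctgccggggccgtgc
Hmgcs1: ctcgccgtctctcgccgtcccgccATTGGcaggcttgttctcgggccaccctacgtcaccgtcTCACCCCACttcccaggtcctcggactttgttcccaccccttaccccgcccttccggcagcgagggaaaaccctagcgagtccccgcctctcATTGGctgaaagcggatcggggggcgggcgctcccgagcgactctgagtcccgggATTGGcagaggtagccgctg
Matches were counted on both strands of the whole RefSeq window, 250 bases before to 50 after the start. Of 44 G2 and mitosis genes, 36 had a promoter in the table, and 26 of these (72.2%) held TTTGAA, against 14.0% of the 9815 tested genes with a promoter and 20.2% of all 27025 promoters. TTTGAA and CCAAT occurred together in 23 of the 36 (63.9%), against 7.14% of tested genes. An E2F site (TTTCCCGC, TTTGGCGC, TTTCGCGC or TTTGCCGC, whose matches can overlap) was present in 13 of 33 replication promoters (39.4%), in 1 of the 36 mitotic ones and in 4.83% of tested genes. CCAAT was found in 14 of 15 cholesterol synthesis promoters (93.3%) and in 43.2% of tested genes, and the sterol element in 1 of the 15, that of Hmgcs1, against 1.41%. These matches describe letters in a window and do not show that a factor binds there.

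G2 and mitosis genes were lower in H2O2. Of 44 members, all tested, 6 were called lower (13.6%, against 0.736% of all tested genes) and none higher. All 44 had a log2 change below 0, against 49.0% of tested genes, with a median of -0.24, and in 22 of them the treated libraries lay wholly below the untreated ones (6.74% of tested genes did). Their summed level was 1930, 1885, 1737 and 2082 CPM in libraries 1 to 4 and 1599, 1550.3, 1681 and 1714 CPM in libraries 5 to 8. The highest treated library thus stayed under the lowest untreated one, library 3, and the means differed by -14.3%. DESeq2 called 34 of the 44 lower, among them the cyclin Ccnb1, the kinases Plk1 and Aurka and the kinesin Kif11. The share it called lower among all 23074 genes with any count, many of them low, was 1.94%. Members of a list share regulation and cell state and are not independent. In the cells with empty vector, without library 11, 37 of the same 44 genes were below 0, the median was -0.05 and none was called. The share of all genes below 0 in those cells is not given here. Medians of tested genes there were -0.005, -0.002, -0.001, -0.007 and -0.053 from the shortest to the longest class of transcript length described below. The longest class held 5 of the 44 members. Whether the list fell more than genes of like length there was not tested.

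Birc5 encodes survivin, a subunit of the chromosomal passenger complex. It stood at 25.7, 23.4, 21.99 and 27.4 CPM untreated and at 18.3, 17.4, 19.8 and 20.2 CPM with H2O2. All 4 treated libraries were below the untreated minimum, in library 3, and Birc5 fell by 0.38 ± 0.07 on the log2 scale (SE, edgeR adjusted p = 0.0385). Cenpa, the histone variant that marks centromeres, stood at 41.6, 41.2, 37.9 and 47.1 CPM untreated and at 31.8, 32.3, 33.0 and 34.5 CPM treated, a change of -0.35 ± 0.06 (edgeR adjusted p = 0.0312). The treated libraries of Cenpa were the tighter group, and library 4 was the highest untreated one for both genes.

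Ndc80 builds the outer kinetochore, where chromosomes attach to microtubules. Its level was 23.5, 21.5, 20.4 and 23.7 CPM untreated and 17.2, 17.0, 18.3 and 18.4 CPM treated, a change of -0.32 ± 0.05 (edgeR adjusted p = 0.0312). Mad2l1, a spindle checkpoint protein, stood at 45.8, 41.5, 40.5 and 49.1 CPM untreated and at 32.9, 35.9, 34.2 and 37.7 CPM treated, with a change of -0.33 ± 0.06 (edgeR adjusted p = 0.0478). Neither gene's groups overlapped, although library 8 brought Mad2l1 to within 3 CPM of untreated library 3.

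Ccnb2, a mitotic cyclin, stood at 50.2, 48.1, 45.4 and 52.9 CPM untreated and at 38.4, 39.3, 40.3 and 43.3 CPM treated. The groups were again apart, and Ccnb2 changed by -0.28 ± 0.05 (edgeR adjusted p = 0.0312). Foxm1, the transcription factor that acts with the CHR-binding complex on mitotic genes, went from 29.4 to 30.8 CPM over the untreated libraries to 23.6 to 26.7 CPM over the treated ones (-0.25 ± 0.04, edgeR adjusted p = 0.0333). Foxm1 had the tightest untreated libraries of these genes relative to its mean. Ccnf (-0.21) and Ccna2 (-0.29), an F-box cyclin and the S and G2 phase cyclin, were not called (edgeR adjusted p = 0.0536 for both), with groups apart. The largest G2 and mitosis values in libraries 5 to 8 were in library 8 for the list's sum, and its smallest in library 6.

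The 5 largest called falls lay outside the list. Ska1, a kinetochore subunit that follows depolymerising microtubules, was read at 5.36, 4.96, 4.78 and 6.11 CPM untreated and at 3.38, 3.29, 4.17 and 4.03 CPM treated (-0.51 ± 0.10, edgeR adjusted p = 0.0385). Cenpp changed by -0.43, Cenpi by -0.34 and Cenpq by -0.33. These 3 are subunits of the constitutive centromere network, and each was called. Trip13, which remodels the checkpoint protein Mad2, changed by -0.40, and the mitotic kinase Pbk by -0.35. Smc2, a condensin subunit, went from 52.7 to 58.3 CPM untreated to 46.2 to 50.2 CPM treated (-0.23 ± 0.04, edgeR adjusted p = 0.0312).

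DNA replication genes were lower too, with a smaller median. Of 40 members, all tested, 3 were called lower (7.50%, against 0.736%) and none higher. The log2 change was below 0 in 38 and the median was -0.18. In 14 the treated libraries lay wholly below the untreated ones, against 6.74% of tested genes. The members' summed level was 984, 911, 967 and 993 CPM in libraries 1 to 4 and 836, 847, 903 and 905 CPM in libraries 5 to 8. Libraries 7 and 8 were thus within 1% of untreated library 2. DESeq2 called 14 of the 40 lower, against 1.94% of all genes with any count. In the empty-vector cells 39 of these 40 genes were below 0 as well, with a median of -0.09 and no call. From the shortest to the longest class of transcript length, tested genes there had medians of -0.005, -0.002, -0.001, -0.007 and -0.053. The longest class held 5 of the 40 members.

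Mcm5, a subunit of the replicative helicase, stood at 22.3, 19.9, 21.8 and 23.8 CPM untreated and at 16.7, 16.4, 18.3 and 18.8 CPM treated. Its change was -0.32 ± 0.06 (edgeR adjusted p = 0.0364), while the other helicase subunits ranged from Mcm4 at -0.14 (adjusted p = 0.0755) to Mcm6 at -0.01 (adjusted p = 0.894) without a call by edgeR, and DESeq2 called Mcm4 lower. Pcna, the sliding clamp of the polymerases, stood at 102.3, 96.8, 102.9 and 109 CPM untreated and at 90.3, 89.5, 93.8 and 92.4 CPM treated (-0.17 ± 0.03, edgeR adjusted p = 0.0406). Rfc4, a subunit of the clamp loader, changed by -0.24 ± 0.05 (edgeR adjusted p = 0.0491). The nucleotide supply genes Tk1 (-0.20, adjusted p = 0.0518) and Tyms (-0.32, 0.0655 likewise) had groups that did not overlap and were called by DESeq2 but not by edgeR.

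Called outside the list were Dbf4, the activator of the Cdc7 kinase that fires origins, at 22.9 to 24.4 CPM untreated and 18.1 to 20.7 CPM treated (-0.29 ± 0.05, edgeR adjusted p = 0.0312), Pclaf, a PCNA-binding factor (-0.36), and Ube2t, the ubiquitin-conjugating enzyme of the Fanconi pathway (-0.34). None of the 12 tested G1 cyclins and CDK inhibitors was called by edgeR (2 were lower at an unadjusted p under 0.05), and their median was -0.01. Among them, Cdkn2d, the 1 member that DESeq2 called, an inhibitor of CDK4 and CDK6, had a log2 change of -0.23 (edgeR adjusted p = 0.0590) and the p53 target Cdkn1a one of 0.02 (edgeR adjusted p = 0.736). Calls in the cell cycle lists depended on single libraries. Without library 1, 5, 6 or 7 no member of the DNA replication or of the G2 and mitosis list was called, without library 8 there were 1 and 6, and without library 3 there were 7 and 33 called lower.

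**Figure D2:**
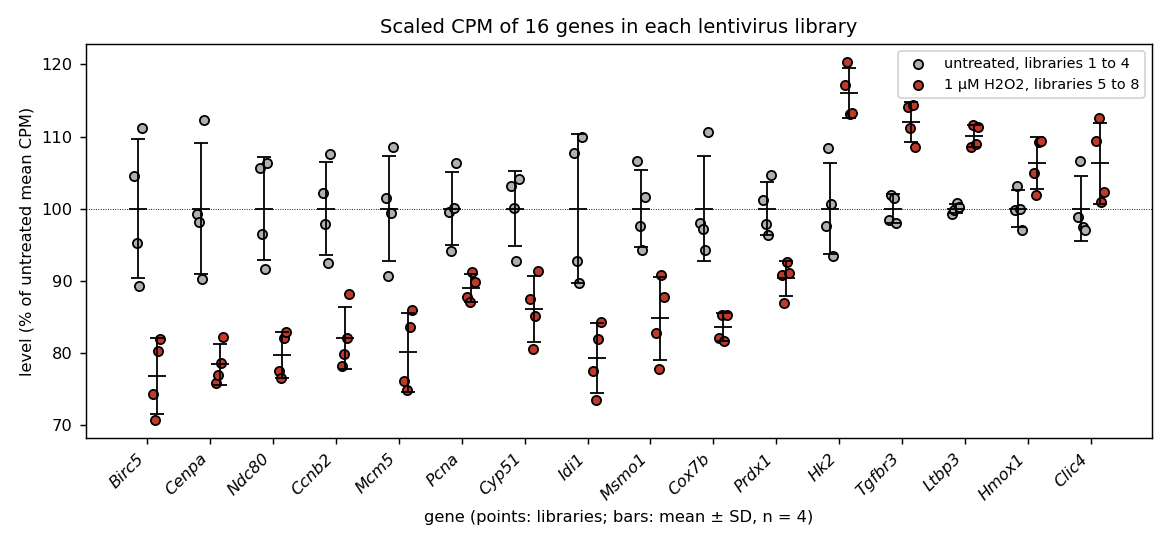
Each point is the scaled CPM of 1 gene in 1 library as a percentage of that gene's untreated mean, with grey points for untreated libraries 1 to 4, red points for H2O2 libraries 5 to 8, and bars for the mean ± SD (n = 4). Birc5, Cenpa, Ndc80, Ccnb2, Mcm5, Pcna, Cyp51, Cox7b, Prdx1, Hk2, Tgfbr3 and Ltbp3 were called by edgeR and their groups do not overlap, while Msmo1, Idi1, Hmox1 and Clic4 were not called by edgeR.

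Cholesterol synthesis genes had small log2 changes of one sign. Of 20 enzymes, all tested, 1 was called lower (5.00%, against 0.736%), none higher, and 20 had a log2 change below 0. The median was -0.12, and in 7 the treated libraries lay wholly below the untreated ones (6.74% of tested genes did). Against 1.94% of all genes with any count, DESeq2 called 5 of the 20 lower, Acat2, Cyp51, Fdft1, Idi1 and Msmo1. The enzymes summed to 1187, 1130.1, 1083 and 1193 CPM untreated and to 1027, 987, 1052 and 1082 CPM treated. Treated library 8 and untreated library 3 nearly touched, and the means differed by -9.72%. In the empty-vector cells the median of the 20 was -0.03, with none called.

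Cyp51, the lanosterol demethylase, was the member called. It stood at 76.9, 74.5, 69.0 and 77.6 CPM untreated and at 65.1, 59.9, 63.4 and 68.1 CPM treated, a change of -0.22 ± 0.04 (edgeR adjusted p = 0.0412). Library 8 came within 1 CPM of library 3. That call was lost without library 1, 2, 4, 5, 6 or 7, and without library 3 the list had 7 calls.

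The neighbouring enzyme Msmo1, a sterol methyl oxidase, stood at 57.6, 52.7, 50.8 and 54.8 CPM untreated and at 44.7, 42.0, 49.0 and 47.4 CPM treated (-0.24 ± 0.05, edgeR adjusted p = 0.0509). Idi1, an isomerase of the isoprenoid steps, stood at 112.5, 96.9, 93.6 and 115 CPM untreated and at 80.9, 76.6, 85.5 and 88.0 CPM treated, with the largest log2 change of the list, -0.33 ± 0.08 (edgeR adjusted p = 0.0849). The untreated Idi1 libraries fell into a higher pair, 1 and 4, and a lower pair, 2 and 3. Fdft1, or squalene synthase, changed by -0.17 ± 0.04 (edgeR adjusted p = 0.0666). Hmgcs1, whose promoter is shown above, was not called, with -0.13 ± 0.04 (edgeR adjusted p = 0.118) and overlapping groups.

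The genes around the pathway did not share this sign. Among 18 tested genes of cholesterol uptake and SREBP2 control, none was called by edgeR in either direction, 9 were below 0, and the median was 0.00. At an unadjusted p under 0.05, 4 were lower and 3 higher, and DESeq2 called 1, Abcg1, higher. Insig1, which holds SREBP2 in the endoplasmic reticulum and is itself its target, had a log2 change of -0.15 ± 0.05 (edgeR adjusted p = 0.162). Abcg1, a sterol exporter driven by liver X receptors, stood at 48.3 to 50.8 CPM untreated and 52.2 to 56.1 CPM treated (0.13 ± 0.03, edgeR adjusted p = 0.0600). The 19 fatty acid synthesis genes were without a call by edgeR or DESeq2 (0 lower and 1 higher at an unadjusted p under 0.05), with a median of 0.01 and Srebf1 at 0.10 (edgeR adjusted p = 0.141).

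Nuclear genes of the respiratory chain made up a further share of the falls. Of 36 complex I subunits, 3 were called lower and none higher (8.33%, against 0.736%), with a median of -0.10 and 34 below 0. Of 39 subunits of complexes II to V, 4 were called lower and none higher (10.3%), with a median of -0.12 and 36 below 0. Cox7b, a small subunit of cytochrome c oxidase, stood at 193, 191, 186 and 218 CPM untreated and at 162, 168, 161 and 168 CPM treated (-0.26 ± 0.04, edgeR adjusted p = 0.0355). Cox6c, another subunit of that enzyme, went from 112 to 122 CPM to 100.4 to 104 CPM (-0.19 ± 0.03, edgeR adjusted p = 0.0312). Ndufa5 (-0.18), Ndufb6 (-0.18) and Ndufv2 (-0.16) of complex I and Atp5j (-0.17) of ATP synthase were called as well. Several of these small subunits have near-identical pseudogene copies, so their counts are uncertain where the counting could split reads. No subunit in either list was called without library 1, 5, 6 or 7.

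The 13 mRNAs encoded in mitochondrial DNA were not called by edgeR or DESeq2, and 0 had an unadjusted edgeR p under 0.05. They held 2.02%, 1.62%, 3.38% and 1.304% of counts in libraries 1 to 4 and 1.18%, 2.61%, 2.18% and 2.27% in libraries 5 to 8. Libraries within each group differed more than the groups did (exact 2-sided permutation test on the share, p = 1, with 0.0286 the smallest p that 4 against 4 allows).

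Transcript length moved with the treatment across all genes. The called falls had a median transcript length of 1908 nt and the called rises one of 5360 nt, against 3117 nt over tested genes. Length was that of each gene's longest annotated transcript, which need not be the one read in these cells. Tested genes were split by this length into 5 classes of equal size. From the shortest to the longest class the median log2 change went from -0.06 over -0.02, -0.00 and 0.01 to 0.05, while in the empty-vector cells without library 11 it was -0.00 in the shortest and -0.05 in the longest. As a description, Spearman's rho between log2 change and length was 0.35 over 13727 genes, which share the same 8 libraries. GC content went with the change too, with a rho of 0.17 and a median GC of 54.4% for called rises, 43.8% for called falls and 49.6% for tested genes, and its part was not tested. The mean deviation of the shortest minus the longest class was 0.08, 0.02, 0.02 and 0.09 (log2) in libraries 1 to 4 and -0.09, -0.02, -0.09 and -0.01 in libraries 5 to 8. The groups did not overlap (exact 2-sided permutation test, p = 0.0286, the smallest possible, adjusted over 5 library measures 0.143).

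With a length-dependent offset in the fit, chosen after seeing the data, 15 genes were called higher (0.109%) and 41 lower (0.299%). The medians of the G2 and mitosis, DNA replication and cholesterol lists were then -0.24, -0.18 and -0.12, with 4, 1 and 0 members called. Those of complex I and of complexes II to V were -0.03 and -0.06, with 0 and 2 called. The offset used the longest annotated transcript, 7557 nt for Mad2l1 and 3038 nt for Cox6c, and the transcripts read may be shorter. It may thus be wrong for such genes, and whether the falls hold at the length read was not tested. Within class 4 by length, tested genes had a median of 0.01. There the 17 G2 and mitosis genes had one of -0.24 and the 7 cholesterol enzymes one of -0.14. Within class 1, the shortest, tested genes had a median of -0.06, the 25 complex I subunits one of -0.10 and the 23 of complexes II to V one of -0.13. The medians in class 2 were -0.02, -0.11 (6 subunits) and -0.10 (9 subunits) in the same order. In every class with members, both respiratory lists had medians below that of tested genes. The 1 cholesterol enzyme in class 1 was at -0.03, above the median of tested genes. Of the 47 named genes that were called, 27 stayed called with the offset and 20 did not. Some of the 20 kept their log2 change, such as Birc5 (-0.38 without and -0.37 with the offset), Mad2l1 (-0.33 and -0.38), Ube2t (-0.34 and -0.33) and Cyp51 (-0.22 and -0.22). In others it was closer to 0 with the offset, such as Ndufb6 (-0.18 and -0.09), Ndufa5 (-0.18 and -0.11), Atp5j (-0.17 and -0.10), Kdm5b (0.17 and 0.11) and Tns3 (0.15 and 0.11). The rest were Pclaf, Cenpq, Pcna, Rfc4, Prdx1, Ndufv2, Ltbp3, Adamts4, Col16a1, Ppl and Bicral.

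**Figure D3:**
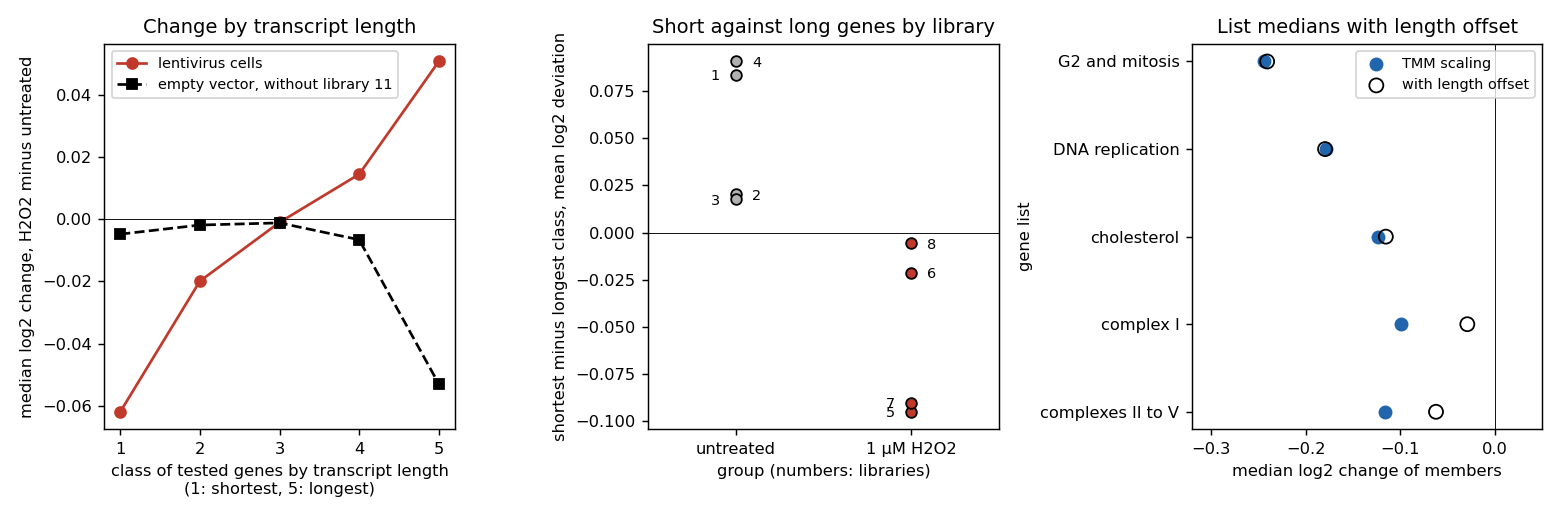
Left, median log2 change (H2O2 minus untreated) by class of transcript length for the lentivirus cells (red) and the empty-vector cells without library 11 (black). Middle, the shortest minus the longest class in each lentivirus library (mean log2 deviation), above 0 in the 4 untreated and below 0 in the 4 treated libraries. Right, median log2 change of 5 lists with TMM scaling (filled) and with the length offset (open), where the medians of both respiratory lists lie closer to 0 with the offset.

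The rises were fewer and smaller. Hk2, the hexokinase that commits glucose to glycolysis, stood at 203, 226, 209 and 194 CPM untreated and at 244, 250.3, 235 and 236 CPM treated. Untreated library 2 was the closest to the treated group, and Hk2 changed by 0.21 ± 0.04 (log2, edgeR adjusted p = 0.0385). It was the 1 called member of 31 tested glycolysis and hypoxia genes (3.23%, against 0.146% of all tested genes). The list's median was 0.08, and 26 of 31 were above 0, while 49.0% of tested genes were below 0. At an unadjusted p under 0.05, 16 of the 31 were higher, against 7.92% of tested genes. Hk1 (0.12, edgeR adjusted p = 0.0518), Pfkp (0.11, 0.0652 likewise) and the glucose transporter Slc2a1 (0.12, 0.0628 likewise) were not called by edgeR. DESeq2 called these 3, Hk2 and P4ha2 higher, against 0.936% of all genes with any count. The summed levels of the list overlapped between groups.

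Tgfbr3, or betaglycan, a co-receptor for TGF-beta, stood at 116, 120.3, 119.8 and 116 CPM untreated and at 135, 131, 135 and 128 CPM treated (0.16 ± 0.03, edgeR adjusted p = 0.0312). Ltbp3, which binds latent TGF-beta in the matrix, stood at 366, 368, 371 and 369 CPM untreated and at 400.1, 411, 401 and 410.2 CPM treated (0.14 ± 0.03, edgeR adjusted p = 0.0312). Both had tight untreated libraries. None of the 13 tested genes on a list of TGF-beta and YAP targets was called by edgeR. At an unadjusted p under 0.05, 4 were higher, against 7.92% of tested genes. The log2 change was above 0 in 12, with a median of 0.06, while 49.0% of tested genes were below 0. These targets had a median transcript length of 4427 nt, against 3117 nt over tested genes. DESeq2 called Smad3 and Thbs1 higher, against 0.936% of all genes with any count.

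The other named rises belong to no list. Src, a non-receptor tyrosine kinase, went from 52.1 to 54.1 CPM to 57.6 to 60.3 CPM (0.15 ± 0.03, edgeR adjusted p = 0.0355), and Tns3, a focal adhesion adaptor, from 227 to 244 CPM to 258 to 270 CPM (0.15 ± 0.03, edgeR adjusted p = 0.0333). Jup (0.14) and Ppl (0.14) encode the desmosomal proteins plakoglobin and periplakin. The matrix genes Col16a1, a collagen, and Adamts4, a protease, rose by 0.15 and 0.16 (log2). Kdm5b, a histone H3 lysine demethylase, rose by 0.17, Sema4d, a semaphorin, by 0.17, and Trp53i11 by 0.16. Pygb, the brain form of glycogen phosphorylase, rose by 0.14, as did Pdzrn3, and Bicral rose by 0.15.

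The list of peroxide removal genes also holds Txnip, which inhibits thioredoxin. Of its 28 tested members, edgeR called 1 lower (3.57%, against 0.736%) and none higher. DESeq2 called Glrx3 and Prdx1 lower and Txnip higher. The log2 change was below 0 in 19 of the 28, with a median of -0.04, and 8 were lower at an unadjusted p under 0.05 (10.4% of tested genes). The summed level of 30 list members, including Txnip and untested ones, was 3765 to 4004 CPM untreated and 3699 to 3750.4 CPM treated, without overlap. Prdx1, an abundant peroxiredoxin, stood at 498, 481, 474 and 514 CPM untreated and at 447, 427, 455 and 447 CPM treated. Its groups did not overlap, and it changed by -0.15 ± 0.03 (edgeR adjusted p = 0.0478), a call that the length offset ended (-0.12, adjusted p = 0.0930). Catalase (Cat) stood at 94.5 to 100.7 CPM untreated and 97.7 to 99.4 CPM treated, with a log2 change of 0.01 ± 0.03 (edgeR adjusted p = 0.915). Sod2 was at 0.04 (edgeR adjusted p = 0.580).

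The NRF2 target list also held Prdx1 as its 1 edgeR call among 29 tested genes (3.45%, against 0.736%), with a median of -0.01. DESeq2 called Prdx1 lower and Abcc1, an exporter of glutathione conjugates, higher. Hmox1, which degrades haem, stood at 21.7, 22.4, 21.7 and 21.1 CPM untreated and at 22.8, 22.1, 23.7 and 23.7 CPM treated. These groups overlapped in library 6, and the log2 change was 0.09 ± 0.04 (edgeR adjusted p = 0.258). Txnrd1 (-0.03), Gclm (-0.09) and Srxn1 (-0.04) were not called, and Nqo1 was read at about 1 CPM in each group, too low for a precise change (-0.20 ± 0.21). Txnip, an inhibitor of thioredoxin, had treated libraries above all untreated ones, 397 to 416 against 378 to 386 CPM, without a call (0.09 ± 0.03, edgeR adjusted p = 0.0830), though DESeq2 called it.

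None of 24 p53 targets, 29 ATF4 targets, 24 genes of the unfolded protein response, 20 heat shock chaperones, 25 immediate early genes, 19 NF-kB targets, 29 interferon-stimulated genes or 14 iron genes tested was called by edgeR in the lentivirus cells. Their median log2 changes ran from -0.01 to 0.06. At an unadjusted p under 0.05 these lists had from 0 to 2 members lower and from 0 to 4 higher, and DESeq2 called 2 genes in them, the chaperone Hspe1 lower and Sel1l, of protein disposal from the endoplasmic reticulum, higher. Atf4 itself was at -0.08 (edgeR adjusted p = 0.346) and Ddit3 at -0.01 (edgeR adjusted p = 0.957). Gdf15, a stress-induced cytokine, had 0 and 1 counts over the groups and was not tested. On simulated counts of this design, edgeR's test found 8% to 20% of genes changed 1.1-fold, 64% to 84% of those changed 1.2-fold and 88% to 98% of those changed 1.3-fold. Of its calls, 3.57% to 8.61% were unchanged genes. The simulation changed no genes of low level and drew each gene independently, without the length trend of these libraries. The shares of changed genes found may thus be too high for the real libraries, and the share of unchanged genes among the calls too low. The change of Hmox1 was smaller than any size simulated.

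**Figure D4:**
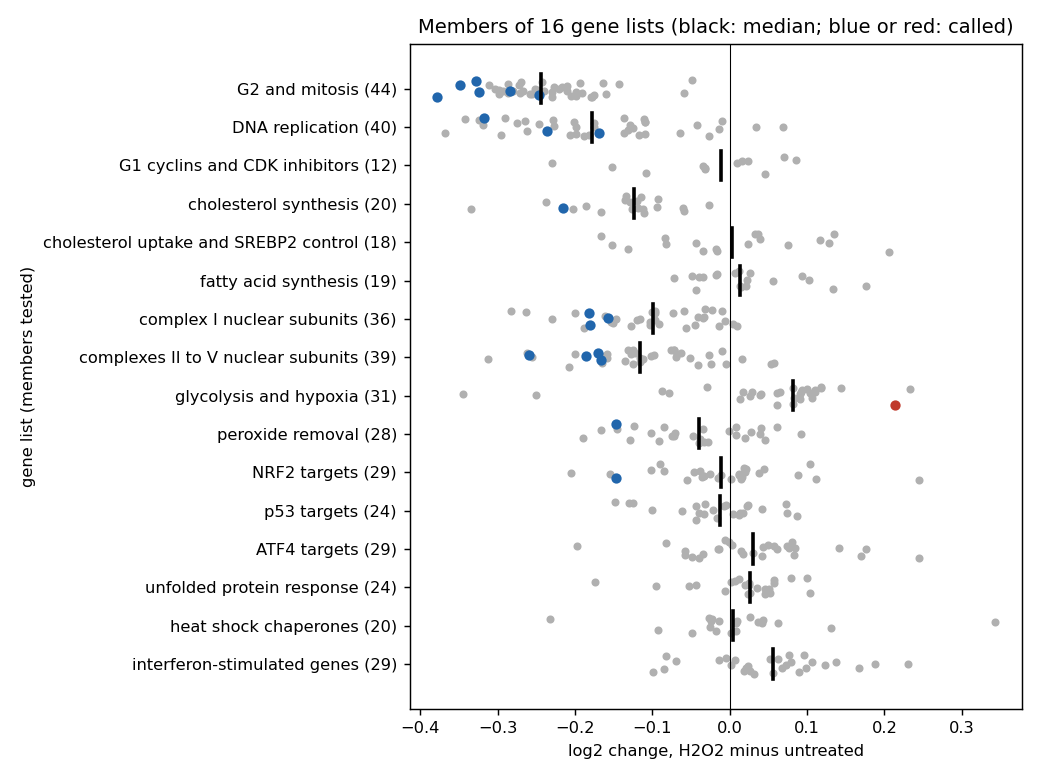
Each point is a tested member of the list named at the left (number tested in brackets), at its log2 change, H2O2 minus untreated, with the list's median as a black bar, genes called lower in blue and higher in red. Medians of G2 and mitosis (-0.24), DNA replication (-0.18) and cholesterol synthesis (-0.12) lie left of 0, while those of the stress lists lie between -0.04 and 0.06.

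The same genes were set beside the empty-vector response, fitted without library 11. Of the 47 named genes called in the lentivirus cells, 27 had the same sign there, and all 47 had a smaller absolute log2 change, from -0.18 (Mcm5) to 0.09 (Ska1). They were chosen for their change in the lentivirus cells, so smaller values elsewhere carry no weight by themselves. Over the 121 called genes 54.5% shared the sign, against 47.7% of all genes, and 35 genes (0.240%) were called in the empty-vector response. The difference of the responses, tested as an interaction with the same 15 libraries, called 28 of 14602 genes (0.192%) and none of the named genes. The smallest interaction adjusted p among them was 0.0583, shared by Tgfbr3 and Tns3. In the empty-vector cells the log2 change was -0.11 ± 0.04 for Tgfbr3 and -0.04 ± 0.03 for Tns3. For Birc5 the difference was -0.29 ± 0.15 (edgeR adjusted p = 0.369), and for Cyp51 it was -0.12 ± 0.06 (edgeR adjusted p = 0.357). A difference of response between the vectors was therefore not shown for these genes.

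**Figure D5:**
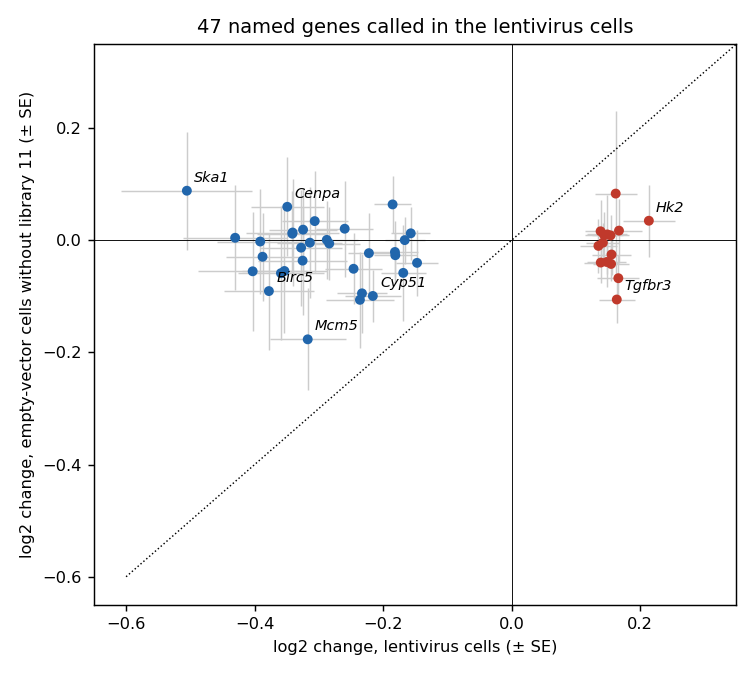
Each point is 1 of the 47 named genes called in the lentivirus cells, with its log2 change (H2O2 minus untreated, ± SE) there on the horizontal axis and in the empty-vector cells without library 11 on the vertical axis. Vertical values run from -0.18 to 0.09, and the dotted line marks equal change.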

How the data were processed

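RNA of 16 libraries was measured. The submitters' processing notes name cutadapt, STAR, RSEM and the build mm10. Tool versions, the gene annotation and the strand setting: not given in the sources used here. Reads of genes that overlap, on either strand, may thus be mixed. The deposited count table holds whole numbers for 25745 genes, and RSEM's estimates were perhaps rounded by the authors before deposit. The deposited FPKM table, scaled by the authors to length and depth, served only for alternatives.

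The 8 lentivirus libraries were fitted alone with edgeR 4.0.16 (R 4.3.3): TMM, filterByExpr (13727 genes), the robust quasi-likelihood F test and Benjamini-Hochberg adjustment over all tested genes, called under 0.05. The SE was taken as |log2 change| over the root of F. Levels are TMM-scaled CPM. Rows had only gene symbols, and positions and transcript lengths came from GENCODE vM21. The length was that of the longest transcript of each symbol. The fit was tested on 6 simulated draws. Alternatives used DESeq2 1.42.0, limma 3.58.1 (voom, and FPKM with pseudocounts of 1 and 0.1 and a minimum of 0.5 FPKM in 4 libraries), other scaling and filters, more or fewer libraries and a transcript length offset.

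Members and lists were chosen with earlier results of these data known. Named were the 15 called genes rising and the 15 falling most (average log2 CPM of at least 2, groups apart), the 10 smallest p-values, up to 8 members of each of the 6 cell cycle and lipid lists, Clic4, Clic1 and 13 oxidant and stress genes, and up to 3 called members of each other list. Beyond the rule, Hk1, Pfkp, Slc2a1, Mcm6, the 3 markers with CPM and genes given as DESeq2 calls were named after their values were seen. Library 11 was left out of empty-vector values because it stands apart. A few named genes are not reported here.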

Additional observations from a re-analysis of the deposited data

Results flagged for a closer look

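In 5 of 196 groups of 4 libraries, over 98 named genes, 1 library stood apart from the other 3 by its gap to the nearest library as a share of the group's range (Dixon's ratio, above its 95% critical value). Chance alone flags about 1 group in 20. For Cdkn2d the ratio was 0.919 in the treated group, where library 6 was low at 11.6 CPM. For Rb1 it was 0.911 in the untreated group, where library 4 was low at 27.3 CPM. In Fdft1, library 1 was high at 52.8 CPM among the untreated libraries (0.924). Nsdhl had a high library 8 at 50.01 CPM in the treated group (0.838), and Stard4 a low library 3 at 36.9 CPM in the untreated group (0.870). Each of the 5 was a different library, and none of the 5 genes was called by edgeR, while DESeq2 called Cdkn2d and Fdft1 lower.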

How the results depend on the processing

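No paired analysis was possible because no library number is shared by groups. For each count the values follow in the order genes called higher, genes called lower, then members called lower of DNA replication, G2 and mitosis, cholesterol synthesis, complex I and complexes II to V; with the chosen settings they were 20, 101, 3, 6, 1, 3 and 4. DESeq2 gave 216, 447, 14, 34, 5, 8 and 16, and edgeR without a filter 206, 421, 14, 20, 5, 6 and 13. With all 16 libraries, with 15, and with limma on log2(FPKM + 1), filtered or not, every one of these counts was 0; with a pseudocount of 0.1 the second was 1 and the others 0. The length offset gave 15, 41, 1, 4, 0, 0 and 2. Leaving out 1 library gave ranges of 0 to 132, 0 to 489, 0 to 7, 0 to 33, 0 to 7, 0 to 6 and 0 to 15. Scaling by RLE, voom and a minimum of 10 CPM stayed within 1.5 times for each count, with 72, 72 and 69 genes lower. The difference of responses went from 28 calls to 0 with all 16 libraries and to 554 with DESeq2. The cause of these shifts was not tested. At 47.1 to 61.9 M counts the spread between libraries was 5.14% (common biological coefficient of variation), and genes near 1 CPM, such as Nqo1, had wide errors.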

Other observations

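Of the 101 genes called lower, 83 were on none of the gene lists, and of the 20 called higher, 19. The following were picked after their values were seen. More cell division genes were among the called falls: the kinesin Kif18a (-0.31), the kinetochore genes Nsl1 (-0.31) and Zwilch (-0.27), the cohesin protector Sgo1 (-0.29), the replication inhibitor Gmnn (-0.29), the histone chaperone Asf1b (-0.29), the abscission factor Cep55 (-0.28), thymidylate kinase Dtymk (-0.24) and Smc4, the condensin partner of Smc2 (-0.15). Mitochondrial import and cristae genes were called lower as well, with Timm23 at -0.19, Minos1 at -0.19, Apoo at -0.24 and Timm21 at -0.16. The mitoribosomal genes Mrps18c (-0.20) and Mrps33 (-0.18) and the proteasome genes Psma6 (-0.20), Psma3 (-0.16) and Psmd10 (-0.20) were called too, as was Id3, an inhibitor of basic helix-loop-helix factors (-0.20). Smim4 (-0.39) and Tex30 (-0.39) were among the 5 largest falls. Among the called rises outside the lists were the kinase Gsk3b (0.13), hormone-sensitive lipase Lipe (0.13) and the semaphorin receptor Plxnd1 (0.12). The calls of this paragraph come from edgeR and share the dependence on single libraries given for all 121 genes.

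In 2 of the 121 called genes the difference of responses was also called, Timm21 (-0.31, edgeR adjusted p = 0.0401) and 1810022K09Rik (-0.39, edgeR adjusted p = 0.0441), with log2 changes of 0.16 and 0.20 in the empty-vector cells. With library 11 included the adjusted p was 0.658 for both.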
